A study of Musa acuminata AAA Group with 4 samples.

Results

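CBL-interacting protein kinases (CIPKs) are plant kinases that are switched on by calcineurin B-like (CBL) proteins, small sensors that bind calcium. A CBL docks on a short inhibitory motif of the kinase and carries it to a membrane, where the kinase phosphorylates transporters and channels. In Arabidopsis roots the pair formed with CIPK23 activates the potassium channel AKT1, and the family is best known for potassium, sodium and nitrate transport. The kinases described here are the 9 genes that the authors' potassium transport table names as a CBL-interacting kinase with a number other than 1, out of 31 genes in that table and 14 CBL-interacting kinases in it. They are kinase 2 (Ma07_g23630), a pair of kinase 6 genes (Ma07_g29120 and Ma07_g05310), kinase 7 (Ma06_g26140), kinase 11 (Ma09_g04710), kinase 12 (Ma06_g28510), kinase 19 (Ma04_g15200), kinase 23 (Ma04_g29510) and kinase 29 (Ma06_g34240).

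RNA was sequenced from Cavendish banana seedlings, a triploid dessert banana (Musa acuminata AAA Group), kept for 60 days in a complete Hoagland solution (normal potassium) or in a solution low in potassium. The 4 samples are leaf and root under each supply, 1 library each, and the labels do not say how many plants a library holds. The libraries hold 4203693 to 4555265 fragments assigned to genes, a total recovered from the deposited counts and FPKM. No gene of the green tissue list had values in both tissue tables, so this list could not check the tissue labels. The 1 gene of the root list with values in both, the nitrate transporter 2.5-like gene Ma01_g16930, was higher in leaf (256 and 23.4 FPKM with normal and low potassium) than in root (89.6 and 2.04 FPKM). It also differed with potassium supply in both tissues, so this gene alone cannot check the tissue labels either. The 4 green tissue genes listed in root were all higher in low potassium, from 30.1 to 108 summed FPKM with none at 0, and the 8 listed in leaf were too, from 389.9 to 1078 summed FPKM. Both Casparian strip genes listed in root were higher in low potassium, 5.39-fold and 7.93-fold, and the 3 nitrate transporter 2 genes of the same root list were lower. The part of these lists in the kinase results was not tested. Fewer cells of a type and less RNA per cell cannot be told apart in whole tissue.

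Levels are in FPKM, fragments per kilobase of gene scaled to library size, as the authors computed them. A fold is the ratio of 2 FPKM values, and its 95% interval covers counting error only, because with 1 library per group there is no replicate check. A gene is listed in a tissue when the authors' deposited table of that tissue holds it. The authors' potassium table holds genes that 1 or both tissue lists contain, so the fold of a kinase in the tissue that lists it was part of its selection and is given as a description. All 9 kinases carry a database annotation to the AMP-activated or SNF1 kinase family, to which CBL-interacting kinases belong. The tissue tables number 3 of the 9 differently, naming kinase 2 as 18-like, kinase 7 as 4-like and kinase 29 as 14-like, so roles known from Arabidopsis kinases of the same number are background only.

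In root most of the kinases were higher in low potassium. The authors' deposited table lists 6 of the 9 as higher and 1 as lower in root, and 2 are not listed there. Over all genes listed in root 40.4% were higher. The share of kinases listed in root, 7 of 9, stands beside 68.2% of the 22 other genes of the potassium table. In leaf the authors' deposited table lists 2 kinases as higher and none as lower, where 67.4% of all listed genes were higher and 36.4% of the 22 other potassium table genes were listed. None of the 9 is listed in both tissues. Over all genes 410 are, which is 34.7% of the leaf list and 8.64% of the root list. With 2 kinases listed in leaf and 7 in root, none in both is not unusual beside these shares. The 6 kinases listed as higher in root had a median log2 ratio of 1.86, beside 1.69 for all 1917 genes listed as higher there. The median log2 fold of the kinases was 0.82 in leaf, over the 6 that allow a fold, and 1.45 in root, with kinase 7 at its bound. Over the genes of the whole potassium table that allow a fold, it was 0.18 in leaf (26 genes) and 0.99 in root (29 genes). Its 5 kinase 1 genes had medians of -0.72 in leaf and 1.39 in root. Its 17 remaining genes, mostly channels and transporters, had -0.15 and -1.09, over the 15 in each tissue that allow a fold.

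**Figure D1:**
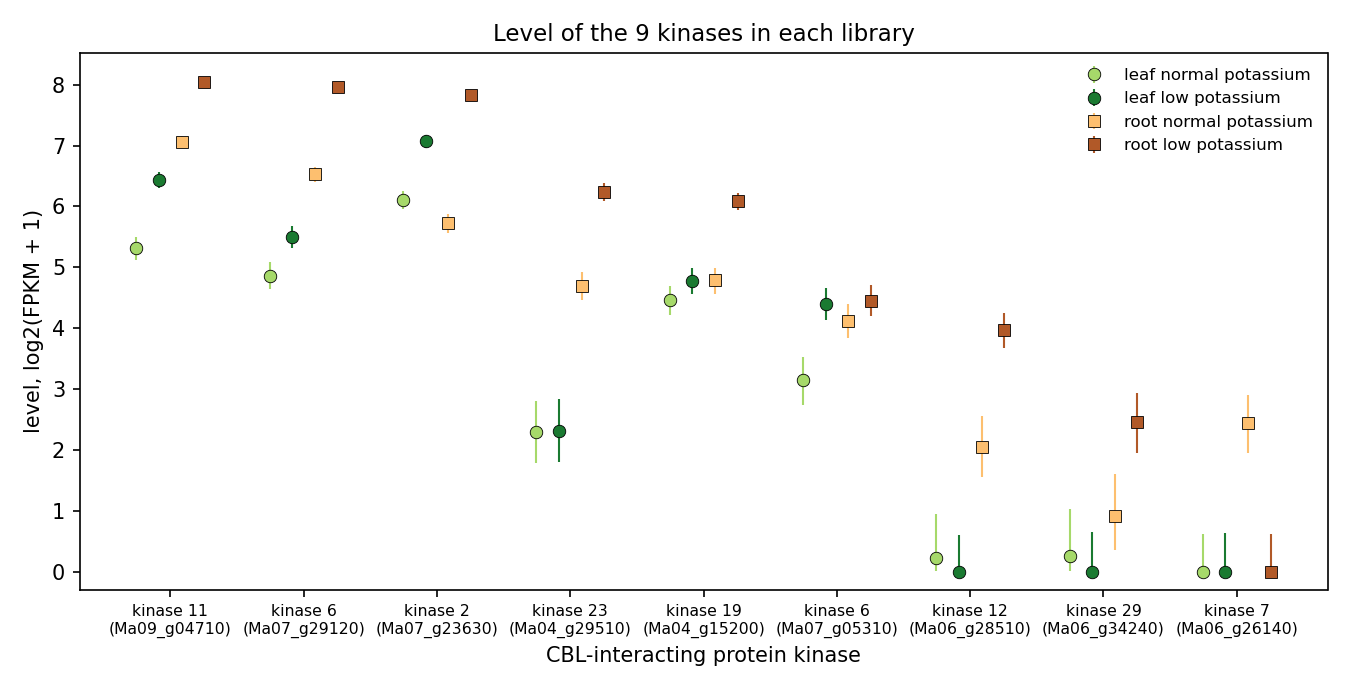
Level of each kinase as log2(FPKM + 1) in the 4 libraries, circles for leaf and squares for root, with dark symbols for low potassium. Bars are 95% Poisson intervals of the fragment count, and for a count of 0 they end at 3 fragments. Kinases 11, 6 (Ma07_g29120) and 2 reach 263, 249 and 228 FPKM in low-potassium root, and kinases 12, 29 and 7 have at most 1 fragment in either leaf library.

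Kinase 23 (Ma04_g29510), the namesake of the Arabidopsis activator of AKT1, was mainly a root transcript. Its leaf level was 3.88 FPKM with normal and 3.97 FPKM with low potassium, and its root level was 24.9 and 74.6 FPKM. Both root libraries lay above both leaf libraries, and the leaf libraries were at the same level. Root was 6.43-fold above leaf in normal potassium (interval 3.998 to 10.6) and 18.8-fold above it in low potassium (interval 12 to 30.3). The low-over-normal fold was 2.99 in root (interval 2.46 to 3.65) and 1.02 in leaf (interval 0.532 to 1.97), where each library held only about 20.8 fragments. A leaf difference of up to nearly 2-fold in either direction is therefore not detectable at this depth.

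The pair of kinase 6 genes behaved differently from each other. In Arabidopsis the kinase of this number acts with CBL4 on the potassium channel AKT2, which it moves to the plasma membrane. Ma07_g29120 measured 28.1 and 44.5 FPKM in normal- and low-potassium leaf and 91.3 and 249 FPKM in normal- and low-potassium root. It was higher in root than in leaf under both supplies, and low potassium was above normal in both tissues, by 1.58-fold in leaf (interval 1.28 to 1.95) and 2.73-fold in root (interval 2.47 to 3.03).

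The other kinase 6 gene, Ma07_g05310, was lower in level and its larger fold was in leaf. It measured 7.85 and 20.2 FPKM in normal- and low-potassium leaf and 16.5 and 20.9 FPKM in normal- and low-potassium root. Normal-potassium leaf stood below the remaining libraries. The fold was 2.57 in leaf (interval 1.81 to 3.75) and 1.27 in root, where the interval of 0.965 to 1.68 includes 1. Root was 2.1-fold above leaf in normal potassium (interval 1.46 to 3.08) and 1.04-fold in low potassium (interval 0.793 to 1.36). The deposited counts of both kinase 6 genes are not whole, which can come from fragments divided among similar genes. This is not particular to the pair. Kinases 11, 12 and 19 also have deposited counts that are not whole, as have 33.8% to 38.1% of all listed genes, depending on the library. Both kinase 6 genes have the same best match in the deposited KEGG annotation, but their deposited protein matches belong to different RefSeq genes. Whether fragments were divided between this pair or with other genes is not known.

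Kinase 11 (Ma09_g04710) had the highest level of the 9 in both root libraries, although in low potassium its counting interval overlapped that of kinase 6 (Ma07_g29120). Its Arabidopsis namesake restrains a plasma membrane proton pump. It measured 38.8 and 86.0 FPKM in normal- and low-potassium leaf and 133 and 263 FPKM in normal- and low-potassium root. The low-potassium library was the higher one in each tissue by much the same factor, 2.21-fold in leaf (interval 1.88 to 2.62) and 1.98-fold in root (interval 1.81 to 2.17). With 1.98-fold the gene lies just below the size limit of the authors' root list, and it is listed in leaf only. Root was above leaf 3.41-fold in normal and 3.05-fold in low potassium.

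Kinase 2 (Ma07_g23630) was higher in leaf under one supply and in root under the other. Its leaf level was 67.8 FPKM with normal and 133 FPKM with low potassium, and its root level was 51.8 and 228 FPKM. In normal potassium leaf was the higher tissue, with a root-over-leaf fold of 0.765 (interval 0.655 to 0.891). In low potassium root was the higher one, 1.71-fold (interval 1.56 to 1.88). The low-over-normal fold was 4.401 in root (interval 3.88 to 5.002) and 1.965 in leaf (interval 1.73 to 2.23), just under the size limit of the leaf list.

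Kinase 19 (Ma04_g15200) had its highest level in low-potassium root. It measured 21.0 and 26.5 FPKM in normal- and low-potassium leaf and 26.6 FPKM in normal-potassium root, against 66.8 FPKM in low-potassium root. The other libraries lay close together, although normal-potassium root was above normal-potassium leaf by slightly more than counting error, 1.26-fold (interval 1.002 to 1.603). The low-over-normal fold was 2.51 in root (interval 2.10 to 3.02) and 1.26 in leaf, where the interval of 0.994 to 1.604 includes 1.

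**Figure D2:**
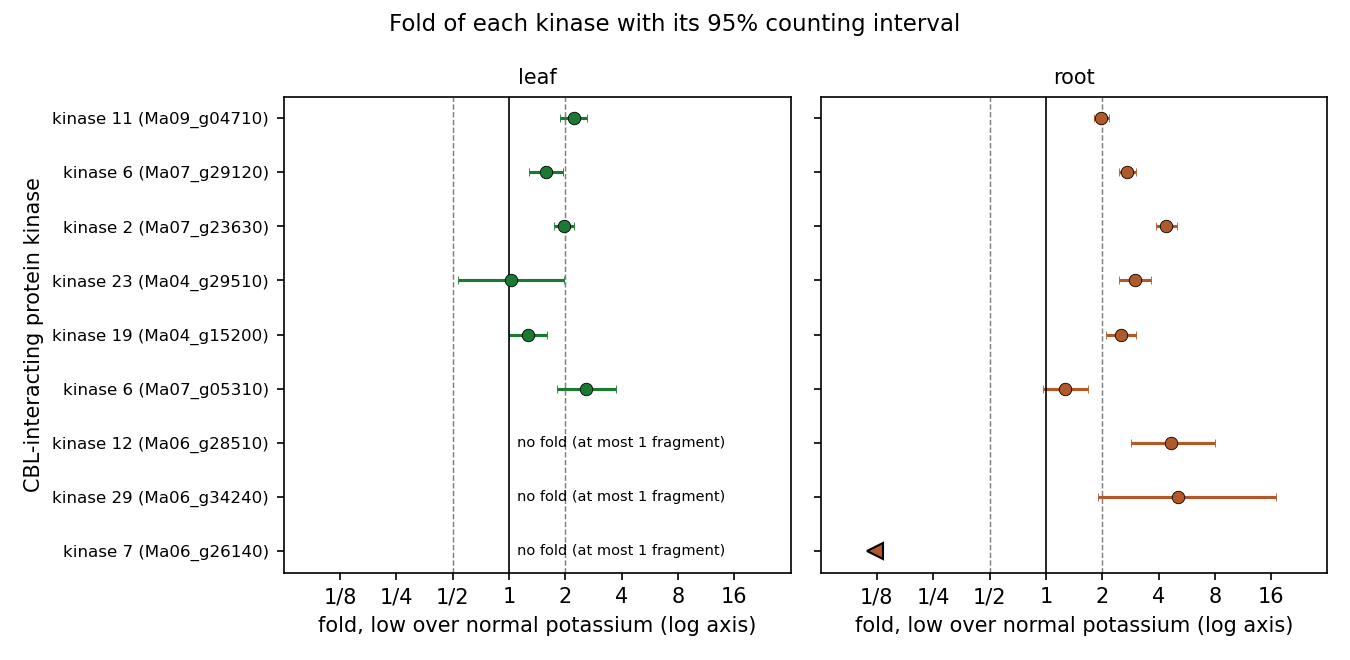
Fold of low over normal potassium for each kinase in leaf (left) and root (right), on a log axis, with 95% counting intervals and dashed lines at 2-fold in either direction. The arrowhead marks kinase 7 in root, at least 8.2-fold lower. In root 8 of the 9 symbols lie right of 1, and in leaf all 6 kinases that allow a fold do.

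Kinases 12, 29 and 7 were near the limit of detection in leaf. Kinase 12 (Ma06_g28510) had 0.17 and 0 FPKM in normal- and low-potassium leaf and 3.15 and 14.7 FPKM in normal- and low-potassium root. Both root libraries were above both leaf libraries, and the root fold was 4.65 (interval 2.84 to 7.99). In low potassium root was at least 28.6-fold higher than leaf, computed against a floor of 3 fragments in the leaf library.

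Kinase 29 (Ma06_g34240) had few fragments in any library, and its root fold is the least precise of the 9. It measured 0.19 and 0 FPKM in normal- and low-potassium leaf and 0.88 and 4.47 FPKM in normal- and low-potassium root, from 5 and 24 fragments in root. The root fold was 5.08, with an interval of 1.90 to 17.04 that overlaps the root intervals of kinases 2, 12, 23, 6 (Ma07_g29120), 19 and 11. With 1 FPKM added to both values it was 2.91, so its place among the folds rests on 5 fragments in normal-potassium root.

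Kinase 7 (Ma06_g26140) was the 1 kinase that was lower in low-potassium root. It had no fragment in either leaf library, 4.41 FPKM from 26 fragments in normal-potassium root and no fragment in low-potassium root. Normal-potassium root was thus the only library with any. The limit that a count of 0 allows, set at 3 fragments, was 0.538 FPKM in low-potassium root and 0.539 and 0.552 FPKM in normal- and low-potassium leaf. Against the floor of 3 fragments, low-potassium root was at least 8.2-fold lower than normal-potassium root.

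Low potassium was above normal potassium in both tissues by more than counting error for kinases 2, 6 (Ma07_g29120) and 11. For kinases 23 and 19 in leaf and kinase 6 Ma07_g05310 in root the interval includes 1, so no direction is resolved there. The difference between the log2 fold in root and that in leaf was 1.55 for kinase 23 (95% counting interval 0.63 to 2.47), 1.16 for kinase 2 (interval 0.91 to 1.42), 1.0 for kinase 19 (interval 0.58 to 1.42) and 0.79 for kinase 6 Ma07_g29120 (interval 0.46 to 1.12). These 4 are listed in root and not in leaf. For kinase 6 Ma07_g05310 the difference was -1.02 (interval -1.65 to -0.38), and it is listed in leaf and not in root. For kinase 11 it was -0.16, and the interval of -0.43 to 0.11 includes 0. The values behind these differences are the ones by which the genes came to be listed in 1 tissue and not in the other, so they are a description and no evidence of a tissue difference. The spread between plants is not in the intervals.

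Summed over the 9 kinases, the leaf level was 168 FPKM with normal and 314 FPKM with low potassium, and the root level was 352 and 921 FPKM. The sum was 1.87-fold higher in low potassium in leaf and 2.62-fold higher in root. The sums pool values that were part of the selection, with 2 of the 9 kinases listed in leaf and 7 in root. Their folds, and the larger one in root, are therefore a description only. Of all assigned fragments the 9 genes held 0.0219%, 0.0408%, 0.0453% and 0.119% in the same order of libraries. Kinases 2, 6 (Ma07_g29120) and 11 made up between 78.3% and 83.9% of the sum in every library. Their order within the sum differed between the tissues and was the same under both supplies. Kinase 2 gave the largest part in leaf, 40.4% in normal and 42.4% in low potassium, and kinase 11 the largest part in root, 37.7% in normal and 28.5% in low potassium. The part of kinase 2 in root was 14.7% in normal and 24.8% in low potassium.

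**Figure D3:**
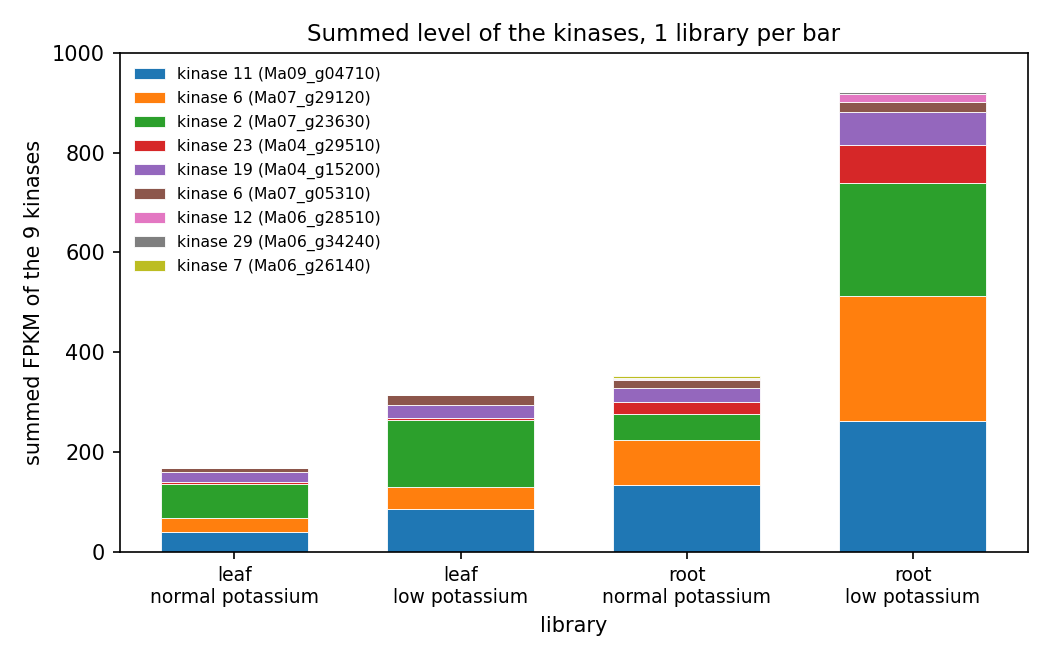
Summed FPKM of the 9 kinases in each of the 4 libraries, stacked by kinase, 1 library per bar and no error bar. The sum is 921 FPKM in low-potassium root and 352 FPKM or less in the other libraries. Differences between supplies were part of the selection of these genes.

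Ordered by level, kinases 2, 11 and 6 (Ma07_g29120) led in normal-potassium leaf at 67.8, 38.8 and 28.1 FPKM, and the intervals of the last of these and kinase 19 overlapped. The same order held in low-potassium leaf, where the intervals of kinase 19 and kinase 6 Ma07_g05310 overlapped. In normal-potassium root the order began with kinase 11, kinase 6 (Ma07_g29120) and kinase 2, all apart by more than their counting intervals, and kinases 19 and 23 followed with overlapping intervals. In low-potassium root the leading kinases 11, 6 (Ma07_g29120) and 2 had overlapping intervals with their neighbours in the order, as had kinases 23 and 19.

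Between the tissues, 7 of the 9 kinases were at least 2-fold higher in root than in leaf in normal potassium, beside 31.8% of the 22 other genes of the potassium table. Among the 7 is kinase 29, with about 1 fragment in leaf and 5 in root and an interval of 0.527 to 222.9 that includes 1, and with FPKM + 1 the count is 5. In low potassium 6 of the 9 were, beside 18.2% of the 22. No kinase of the 9 was 2-fold lower in root. The 5 kinase 1 genes of the same table were all at least 2-fold lower in root than in leaf in normal potassium. In low potassium 3 of them were, and 1 of the others, Ma08_g10700, was 1.594-fold higher in root (interval 1.064 to 2.41). The median log2 fold of root over leaf was 1.77 for the 9 kinases, with kinase 7 at its bound, and -2.25 for the kinase 1 genes in normal potassium. In low potassium it was 2.05 over the 8 kinases that allow a fold, with kinases 12 and 29 at their bounds, and -1.55 for the kinase 1 genes. These tables hold chosen genes only, and 7 of the 9 kinases were listed in root and 2 in leaf. Kinases 12, 29 and 7, with at most 1 fragment in either leaf library, could have been listed through root only. The choice thus favoured kinases with a high root level. The counts and medians are a description of these genes and no evidence of a tissue difference of the family.

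**Figure D4:**
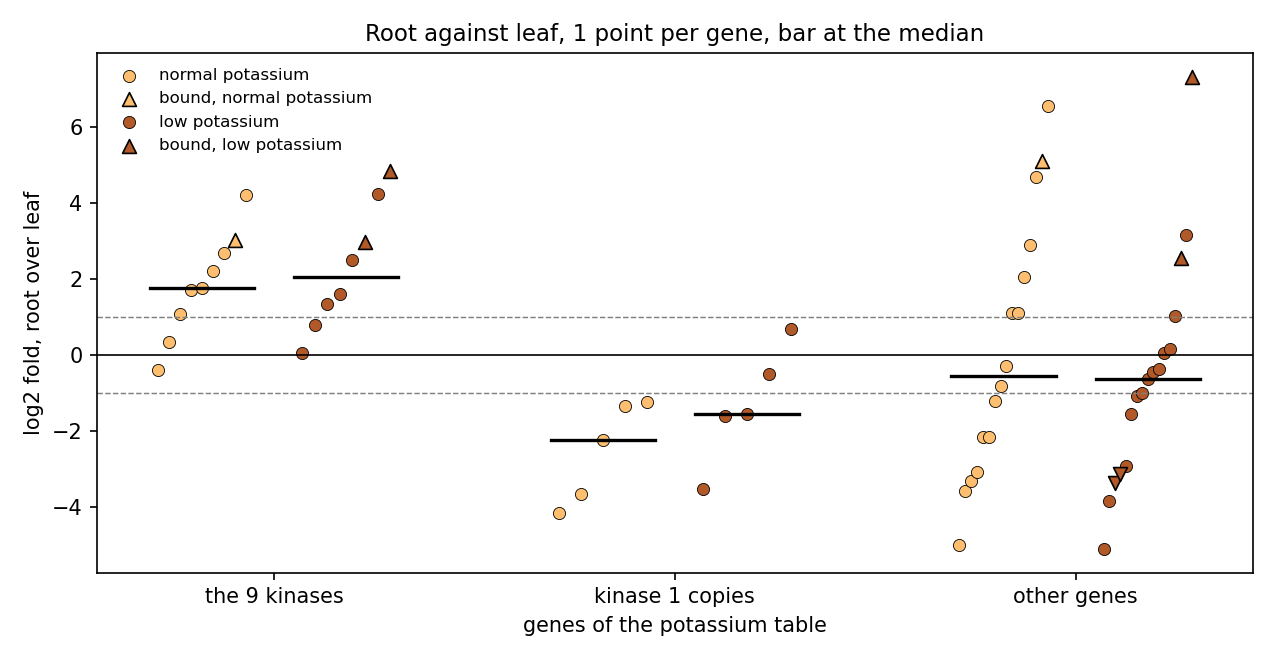
Log2 fold of root over leaf for the genes of the potassium table, 1 point per gene, pale for normal and dark for low potassium, triangles for bounds against the floor of 3 fragments, bars at the median and dashed lines at 2-fold. The medians are 1.77 and 2.05 for the 9 kinases and -2.25 and -1.55 for the kinase 1 genes.

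The likeness of patterns was measured as the distance between log2(FPKM + 1) profiles over the 4 libraries after subtracting each gene's mean, among the 31 genes of the potassium table. Kinases 12 and 23 were each other's nearest gene at a distance of 0.418, where the median distance from kinase 23 to the other genes was 3.44. Kinase 12 had 0.17 and 0 FPKM in normal- and low-potassium leaf, so its leaf values here rest on the added 1. Without it, root over leaf in normal potassium was 18.5-fold for kinase 12 (interval 3.02 to 782) and 6.43-fold for kinase 23 (interval 3.998 to 10.6). The value of kinase 12 rests on about 1 leaf fragment and the intervals overlap, so a difference between these folds is not resolved. Kinases 11 and 6 (Ma07_g29120) were also each other's nearest gene, at 0.612. Kinase 2 was nearest to the potassium transporter 6-like gene Ma07_g21520 at 0.785, and kinase 6 Ma07_g05310 to the cation/calcium exchanger 1-like gene Ma08_g20660 at 0.721. Kinase 19 was nearest to kinase 29 at 0.861, but kinase 29 had at most 4.47 FPKM in any library, so the added 1 weighs on its profile too. With 4 libraries such distances describe these profiles only.

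Genes of calcineurin B-like proteins, the sensors of this kinase family, were listed in root only. Of all genes listed in root, 8.64% are also listed in leaf. Both listed calcineurin B-like genes were higher in low-potassium root, where 40.4% of all listed genes were higher. Whether they act with any of the 9 kinases was not tested. CBL4 (Ma01_g07300), whose Arabidopsis namesake is the salt tolerance sensor SOS3, measured 17.5 and 45.6 FPKM in normal- and low-potassium root, 2.61-fold higher (interval 1.86 to 3.71). CBL7 (Ma01_g07290), the gene numbered just before it, measured 5.61 and 17.7 FPKM, 3.16-fold higher (interval 1.70 to 6.28). Their counts are not whole, so fragments may be shared between them.

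Among genes whose Arabidopsis counterparts kinases of this family act on, 2 proton pumps and 1 sodium/hydrogen exchanger were listed in root. All were higher in low potassium, as were 40.4% of all genes listed there. The sodium/hydrogen exchanger 8 gene (Ma08_g18780), of the group of plasma membrane exchangers that includes SOS1, measured 84.7 and 235 FPKM, 2.78-fold higher (interval 2.60 to 2.96). Both listed plasma membrane proton pumps were higher in root, the more abundant one (Ma10_g30850) at 52.2 and 155 FPKM. In leaf 1 proton pump and 1 sodium/hydrogen exchanger were listed, both lower, where 67.4% of all listed genes were higher. Respiratory burst oxidases, which make superoxide outside the cell and are activated by some of these kinases, were divided in root, with 3 higher and 3 lower. The most abundant, Ma06_g13290, was higher in both tissues, 3.81-fold in root (35.2 and 134 FPKM) and 5.29-fold in leaf (2.36 and 12.5 FPKM).

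Phosphatases of the 2C class, some of which bind and oppose CBL-interacting kinases in Arabidopsis, were higher for 22 of 29 listed genes in root and 4 of 6 in leaf. The most abundant in root was Ma09_g24570, at 144 and 325 FPKM. Of the other calcium-decoding proteins, calcium-dependent protein kinases were higher for 4 of 6 listed genes in root and none was listed in leaf. Calmodulins and calmodulin-like proteins were higher for 3 of 6 in root and 3 of 3 in leaf, where calmodulin Ma03_g09180 measured 182 and 498 FPKM. The listed SNF1-related genes, 3 in root and 1 in leaf, were all higher. These counts are over listed genes only, of which 40.4% in root and 67.4% in leaf were higher.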

How the data were processed

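The authors deposited 1 table per tissue and 1 short potassium table. Per the file headers, the tissue tables give gene length, an expression value, FPKM, a log2 ratio, a p-value and an FDR. The expression values that the authors deposited are estimated counts of fragments, judging by the values, and not all are whole. In the authors' deposited lists every FDR was at most 0.000995 in leaf and 0.000987 in root, with an absolute log2 ratio of at least 1.0. The potassium table names no unit, and for the kinases its values equal the deposited FPKM to within 0.001. The aligner, counting program, genome build and the authors' test were not given in the sources used here. Per the labels' protocols, poly(A) RNA was copied with random hexamers and no step marked the strand.

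Library totals came from a line of count over FPKM against gene length, using genes above 100 fragments and 5 FPKM and dropping those over 1% off it. Where a tissue table lacks a kinase, its count was computed from FPKM, length and this line, which missed the 18 deposited kinase counts by at most 2.28 fragments. Fold intervals are exact (Clopper-Pearson) binomial intervals of 95% on rounded counts. Intervals of a difference of log2 folds use the normal approximation. Folds against 0 use a floor of 3 fragments per library, and none is given where both counts are at or under it. These limits describe counting error alone, and amplified copies of 1 molecule are not separate observations. With 1 library per group no test was made and no p-value is given. The line and the fold intervals were tested on simulated data. The intervals of levels, those of differences of log2 folds and the bounds against the floor were not. All 9 kinases are named, and of each pathway list, defined by words in the deposited descriptions, at most the 3 genes of highest mean FPKM. The nitrate transporter Ma08_g10970 and the kinase 1 gene Ma08_g10700 were named after their values were seen. Kinases and lists were chosen with earlier results of these data known. Of the 9, 8 matched a RefSeq entry of another assembly by protein accession, so no coordinates are given. Python 3.11.15, pandas 2.3.3, scipy 1.17.1 and matplotlib 3.10.9 were used.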

Additional observations from a re-analysis of the deposited data

Results flagged for a closer look

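Kinases 12 and 29 were flagged because their FPKM differences had opposite signs in leaf and root, but no direction is resolved in leaf. From normal to low potassium the leaf level differed by -0.17 FPKM for kinase 12 (Ma06_g28510) and by -0.19 FPKM for kinase 29 (Ma06_g34240), while root was higher in low potassium for both. Each leaf difference is that between about 1 fragment and 0, and the difference between tissues was not tested.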

How the results depend on the processing

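No value changed direction under any alternative run. With a fold limit of 1.5, or with the counting interval excluding 1 as the rule, 4 kinases were higher in leaf in place of 2, since kinases 2 and 6 (Ma07_g29120) joined. With a limit of 3, 0 were higher in leaf and 3 in root (kinases 2, 12 and 29), kinase 23 falling short at 2.99. Without the kinase of the highest level the sums were 100.1 and 181 FPKM in normal- and low-potassium leaf and 219.5 and 659 FPKM in root, so the root sum was then 3.001-fold higher. For kinase 7 in root the fold was 0.185 with a pseudocount of 1 and 0.0222 with 0.1, against a bound of 0.122, and it rests on the constant used. The root fold of kinase 29 was 2.91 with a pseudocount of 1, against 5.08. With FPKM + 1, 5 kinases in place of 7 were at least 2-fold higher in root than in leaf in normal potassium. The other alternatives, which were a filter on FPKM or fragments, FPKM + 1, folds from counts, and other library totals, left each count of kinases, and each other kinase's fold, within 1.5 times. No paired analysis was possible because each group holds 1 library, and for the same reason none could be left out. Scaling on all genes was not possible because genes outside the deposited lists were not analysed here. Depth limits kinases 12, 29 and 7 in leaf and kinase 23 in leaf.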

Other observations

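The Arabidopsis kinase CIPK23 phosphorylates some nitrate and ammonium transporters. Nitrate transporters were higher in low potassium for 2 of 9 listed genes in leaf and 5 of 15 in root, beside 67.4% and 40.4% of all listed genes, so the root share is close to that of all listed genes. Ammonium transporters were higher for 1 of 3 listed genes in leaf and 1 of 2 in root. The abundant high-affinity transporter 2.1-like gene Ma08_g13030 measured 173 and 43.9 FPKM in root, 3.93-fold lower (interval 3.46 to 4.48), and the ammonium transporter 1 member 1-like gene Ma08_g12490 measured 38.1 and 9.09 FPKM in leaf, 4.19-fold lower. The ammonium transporter 2 member 1-like gene Ma04_g19270 was higher in both tissues, 2.39-fold in leaf and 4.04-fold in root. One NRT1/PTR 6.3-like gene, Ma08_g10970, chosen after its values were seen, was 61.8-fold higher in leaf (0.22 and 13.6 FPKM, interval 13.7 to 426), while in root, at 6.64 and 2.05 FPKM, it was 3.24-fold lower (interval 1.77 to 5.88). Its counts are not whole, and the difference between tissues was not tested.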
